A study of Homo sapiens with 10 samples.

Results

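The enzymes that finish base excision repair once a DNA glycosylase has removed a damaged base were followed by RNA-seq in HAP1 cells, which are human, near-haploid and descend from the KBM-7 leukaemia line. The genes were taken by name: APEX1, APEX2, POLB, POLL, XRCC1, LIG1, LIG3, PARP1, PARP2 and FEN1. All 10 were found among the 59453 genes of the count tables and all 10 passed the filter on low counts in every fit. The 8 untreated libraries came from HAP1 clones of 4 genotypes, with 2 clones of each. These were wild type (WT, clones 2 and 11), MUTYH-/ (clones 7 and 8), OGG1-/ (clones 1 and 22) and the double knockout of both glycosylases (DKO, clones 4 and 14). The remaining 2 libraries came from WT clones 2 and 11 collected 24 h after exposure to 100 µM H2O2. The knockouts were insertions or deletions made with CRISPR-Cas9. Both DKO clones were derived from a shared OGG1-/ clone, so the DKO libraries are not independent edits of OGG1. The product number of that parent ends in 22, as does the label of OGG1-/ clone 22, so DKO against OGG1-/ and the interaction set the DKO clones beside what appears to be their own parent. Total RNA of all libraries was extracted with an antioxidant and an iron chelator present.

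MUTYH removes adenine paired with 8-oxoguanine, and OGG1 removes 8-oxoguanine itself. Both leave a DNA strand without a base at that position. An AP endonuclease then cuts the backbone there, a DNA polymerase fills the gap and a ligase seals the nick. In the short-patch branch POLB does the filling and LIG3, held by the scaffold XRCC1, does the sealing. In the long-patch branch more nucleotides are laid down, FEN1 trims the displaced flap and LIG1 seals. PARP1 and PARP2 bind the strand break and build ADP-ribose chains that draw in XRCC1. The comparisons ask whether loss of the first enzymes of the pathway, or an oxidant, went with other transcript levels of the enzymes that come after them.

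Library depths were close together, with 22225091 to 22674964 counts. Levels are given as library-size normalized counts (CPM), so that they are relative to the other transcripts of a library, and a change in the RNA of each cell and a change in the mix of cells cannot be told apart. The genes rested on 314 counts at the least, for POLB in OGG1-/ clone 1, and on 22139 at the most, for PARP1 in treated WT clone 2. The transcript of OGG1 was at 1.22 CPM in OGG1-/ clone 1, but at 11.3 CPM in OGG1-/ clone 22 and at 9.63 and 9.83 CPM in the DKO clones, beside 12.2 and 13.1 CPM in untreated WT. The transcript of MUTYH was low in all libraries, from 2.2 to 5.38 CPM, and reached 4.66 CPM in MUTYH-/ clone 7. An edited gene may still be transcribed, so these levels check the genotypes only in part. The study checked the loss of both proteins in its clones by targeted mass spectrometry, which is not analysed here. Of 10 haematopoietic marker genes 8 were below 1 CPM in every library, MPO and CD3E were at 0 counts in all of them, and KIT ranged from 1.99 to 18.5 CPM. All 15 genes of a proliferation list were above 1 CPM in every library, with summed levels from 4740 to 6067 CPM.

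None of the 10 genes met a call criterion in any comparison. With edgeR's quasi-likelihood test, 0 of 10 had a Benjamini-Hochberg adjusted p of at most 0.05, 0 of 10 had a P below 0.05 before adjustment, and 0 of 10 met the criterion of the study, a P of up to 0.05 before adjustment together with a log2 fold change beyond 1. DESeq2 called 0 of the 10 as well. A P of at most 0.05 before adjustment was reached by 1.72% of all genes in MUTYH-/ against WT, 2.74% in OGG1-/ against WT, 2.94% in DKO against WT, 2.62% in DKO against OGG1-/ and in the interaction, 2.64% in the joint test of genotypes and 7.63% in H2O2 against untreated WT. The criterion of the study was met by 1.19% of the 17881 genes tested in MUTYH-/ against WT, 1.67% in OGG1-/ against WT, 1.77% in DKO against WT and 1.44% in DKO against OGG1-/. The interaction, which is the change from OGG1-/ to DKO less the change from WT to MUTYH-/, met it in 2% of genes, and H2O2 against untreated WT in 1.75% of 16997 genes. An adjusted p of at most 0.05 was reached by 0.00559% of genes, which is 1 gene, in MUTYH-/ against WT and in the interaction, and by 0% in the other comparisons, including the joint test of any difference between genotypes. These backgrounds are low, so a count of 0 in 10 genes is near what all genes gave.

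The intervals show how large a change could have gone unseen. In each of the 4 comparisons between genotypes the 95% intervals of all 10 genes lay within 2-fold up or down, against 57.5% to 59.2% of all genes tested. The same held for all 10 in H2O2 against untreated WT, against 61.4% of all genes. Changes of 2-fold or more thus lay outside the interval of each gene in these comparisons, while smaller changes may have gone undetected. In the interaction 9 of 10 intervals lay within 2-fold, against 37.8% of all genes, and the exception was XRCC1. The shares of all genes were not matched for level, and genes with few counts have wider intervals. The genotype fit had 4 residual degrees of freedom and the H2O2 fit had 2. The 3 comparisons with WT, and the H2O2 comparison, share the same untreated WT libraries. Each clone gave 1 library per condition, so clones are the replicates behind the P values. In every edgeR fit the spread of a gene is also drawn toward that of all genes tested. The SEs, intervals and P values thus do not rest on the spread between these clones alone. This borrowing weighs most where residual degrees of freedom are few.

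**Figure D1:**
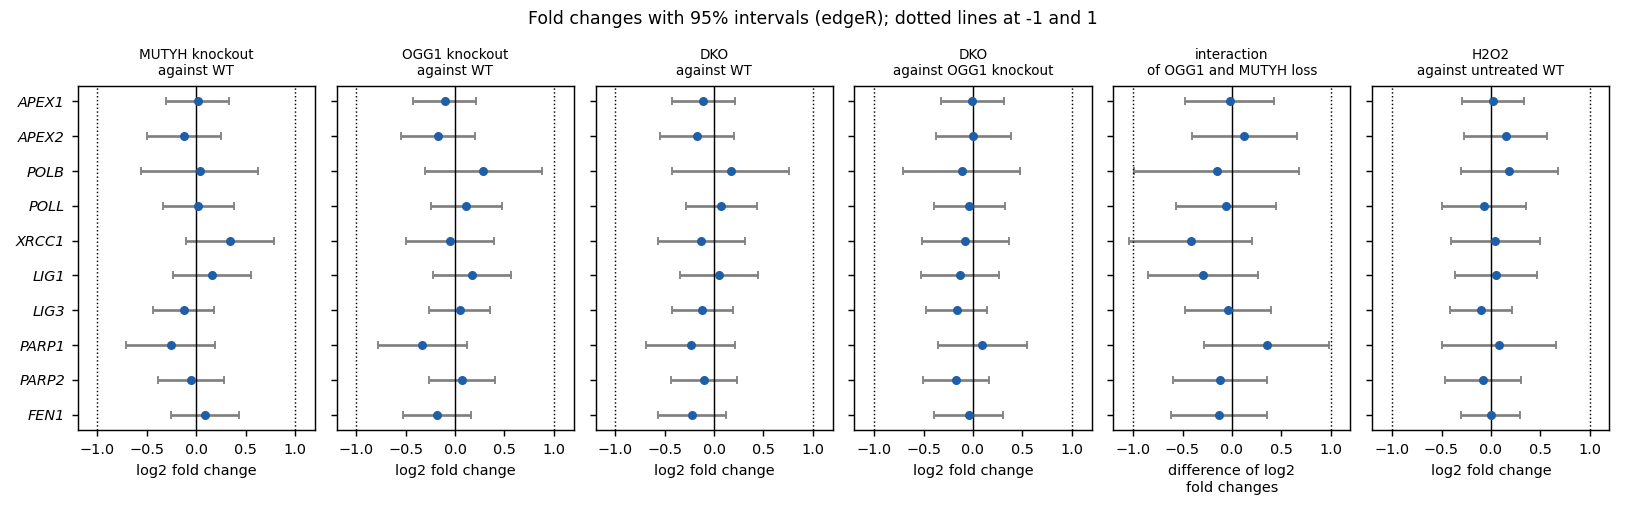
Log2 fold change of each gene (points) with its 95% interval (bars) from edgeR's quasi-likelihood test, in the 4 comparisons between genotypes, the interaction (a difference of log2 fold changes) and H2O2 against untreated WT. Dotted lines mark a log2 value of -1 and 1; all bars cross 0, and XRCC1 in the interaction is the bar that passes a dotted line.

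The AP endonucleases were examined first. APEX1, which makes nearly all of the cuts at abasic sites in human cells, lies on chromosome 14 from 20455191 to 20457772 on the plus strand (GRCh38). Its level was 230.2 and 219.4 CPM in WT clones 2 and 11, 234.7 and 220.9 CPM in MUTYH-/ clones 7 and 8, 207.7 and 210.0 CPM in OGG1-/ clones 1 and 22, and 197.2 and 218.6 CPM in DKO clones 4 and 14. The OGG1-/ and DKO pairs were below the WT pair, by a margin smaller than the spread within DKO. The log2 fold change was -0.11 ± 0.14 (SE, n = 2 against 2) in OGG1-/ and also -0.11 ± 0.14 in DKO, and 0.02 ± 0.14 in MUTYH-/.

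APEX2 is a relative with weak AP endonuclease activity and a strong exonuclease activity that clears blocked ends, and lies on the X chromosome from 55000363 to 55009057. It stood at 82.5 and 63.3 CPM in WT, 65.7 and 68.8 CPM in MUTYH-/, 65.5 and 63.5 CPM in OGG1-/, and 66.8 and 62.3 CPM in DKO. WT clone 2 was the high library, and the other 7 untreated libraries lay within 62.3 to 68.8 CPM. All 3 knockouts overlapped with WT, and the largest log2 fold change was -0.18 ± 0.16 in OGG1-/.

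Of the gap-filling polymerases, POLB inserts the missing nucleotide and also removes the sugar remnant that the AP endonuclease leaves. The gene lies on chromosome 8 from 42338454 to 42371808. It rested on the fewest reads of the 10 genes, with 15.9 and 14.4 CPM in WT, 14.9 and 16.2 CPM in MUTYH-/, 14.2 and 22.6 CPM in OGG1-/, and 14.8 and 19.1 CPM in DKO. The clones of OGG1-/ were further apart than any pair of genotype means, and clone 22 was the highest of all libraries. The log2 fold change in OGG1-/ was 0.28 ± 0.25 with a 95% interval from -0.31 to 0.88, and in DKO it was 0.17 ± 0.25. Genes within 10 Mb of POLB did not share the high value of OGG1-/ clone 22: POLB was 0.54 above its mean over the other 7 untreated libraries on the log2 scale, while the median of 52 neighbours was 0.02 above theirs. Its fold change in OGG1-/ on the log2 scale was 0.57 (unadjusted P 0.0482, edgeR adjusted p 0.772) without OGG1-/ clone 1 and -0.08 without clone 22, so the difference of POLB rested on clone 22.

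POLL, a polymerase of the same family that can stand in for POLB and also fills gaps in end joining, lies on chromosome 10 from 101578882 to 101588270. It was among the steadiest transcripts, at 24.6 and 24.5 CPM in WT, 26.4 and 23.5 CPM in MUTYH-/, 25.1 and 28.0 CPM in OGG1-/, and 26.5 and 25.1 CPM in DKO. Both OGG1-/ and both DKO libraries were above the WT pair, whose values nearly coincided. The log2 fold changes were 0.11 ± 0.15 in OGG1-/ and 0.07 ± 0.15 in DKO.

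XRCC1 has no known enzyme activity and carries LIG3, POLB and end-processing enzymes to the break. It lies on chromosome 19 from 43543311 to 43580473 on the minus strand. Its level was 29.8 and 38.9 CPM in WT, 45.5 and 41.6 CPM in MUTYH-/, 33.9 and 32.3 CPM in OGG1-/, and 34.1 and 28.5 CPM in DKO. Both MUTYH-/ clones were above every other library, the H2O2 pair included. The share of all genes with such a pair is not given here. edgeR's joint test of any difference between genotypes gave XRCC1 an unadjusted P of 0.139. The log2 fold change in MUTYH-/ was 0.34 ± 0.19, the largest of the 10 genes in the pairwise comparisons that were tested, with a 95% interval from -0.10 to 0.78, an unadjusted P of 0.111 and an edgeR adjusted p of 1.00. This value became 0.16 without WT clone 2 and 0.55 without WT clone 11 (unadjusted P 0.0443, edgeR adjusted p 0.974), so its size depended on the WT clone kept. In the interaction the difference of log2 fold changes was -0.42 ± 0.27, with an interval from -1.04 to 0.21 and an edgeR adjusted p of 1.00. The WT clones differed by nearly as much as the genotypes did.

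LIG1 joins nicks in replication and in long-patch repair, and lies on the same chromosome as XRCC1 from 48115445 to 48170603. It was at 88.1 and 105.2 CPM in WT, 113.3 and 103.8 CPM in MUTYH-/, 120.5 and 97.3 CPM in OGG1-/, and 100.4 and 98.7 CPM in DKO. Each knockout overlapped with WT. LIG3, the ligase of the short-patch branch and the only DNA ligase of mitochondria, lies on chromosome 17 from 34980512 to 35009743. It was at 76.4 and 79.4 CPM in WT, 75.2 and 67.8 CPM in MUTYH-/, 78.3 and 82.5 CPM in OGG1-/, and 72.3 and 70.9 CPM in DKO. The MUTYH-/ and DKO pairs were below the WT pair, and the DKO pair was below the OGG1-/ pair, with log2 fold changes of -0.13 ± 0.13, -0.12 ± 0.13 and -0.17 ± 0.13. RFFL on the opposite strand overlaps 3754 bases, 29.1%, of the exons of LIG3 and had 244 to 444 counts. The strand setting of the counting is not given in the sources used here, so reads of this stretch may have been assigned to either gene or to neither.

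PARP1 is the main sensor of DNA strand breaks and took the most reads of the 10 genes. It lies on chromosome 1 from 226360210 to 226408154 on the minus strand. Its level was 939.7 and 683.0 CPM in WT, 635.0 and 727.4 CPM in MUTYH-/, 630.7 and 658.5 CPM in OGG1-/, and 654.9 and 720.8 CPM in DKO. WT clone 2 stood apart, and the other 7 untreated libraries lay between 630.7 and 727.4 CPM. The log2 fold change was -0.33 ± 0.19 in OGG1-/ with a 95% interval from -0.78 to 0.12, -0.26 ± 0.19 in MUTYH-/ and -0.24 ± 0.19 in DKO. Without WT clone 2 these values became -0.09, -0.01 and 0.01, so the differences of PARP1 between knockouts and WT rested on that library. Without WT clone 11 the value in OGG1-/ was -0.54 (unadjusted P 0.0406, edgeR adjusted p 0.835).

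PARP2, which shares the break-sensing role at a lower level, lies on chromosome 14 from 20343615 to 20357904. It stood at 75.5 and 65.6 CPM in WT, 69.2 and 67.5 CPM in MUTYH-/, 68.2 and 79.4 CPM in OGG1-/, and 64.4 and 66.4 CPM in DKO. The DKO pair was below the OGG1-/ pair (log2 fold change -0.17 ± 0.14), and no other pair of genotypes that was compared was free of overlap. FEN1, the flap nuclease of long-patch repair and of lagging-strand replication, lies on chromosome 11 from 61792911 to 61797238. It was at 182.7 and 185.2 CPM in WT, 195.7 and 196.3 CPM in MUTYH-/, 172.2 and 152.1 CPM in OGG1-/, and 167.4 and 146.5 CPM in DKO. MUTYH-/ was the highest pair, and the OGG1-/ and DKO pairs were below the WT pair. The DKO clones share an OGG1-/ parent, so these pairs are not independent losses of OGG1. The log2 fold change was 0.09 ± 0.15 in MUTYH-/, -0.18 ± 0.15 in OGG1-/ and -0.23 ± 0.15 in DKO, where the 95% interval ran from -0.57 to 0.12. FADS2 shares 49 bases of exon with FEN1 on the same strand. The pseudogenes FEN1P1, PARP1P1 and PARP1P2, which could take reads from their parent genes, had 0 to 4 counts per library.

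**Figure D2:**
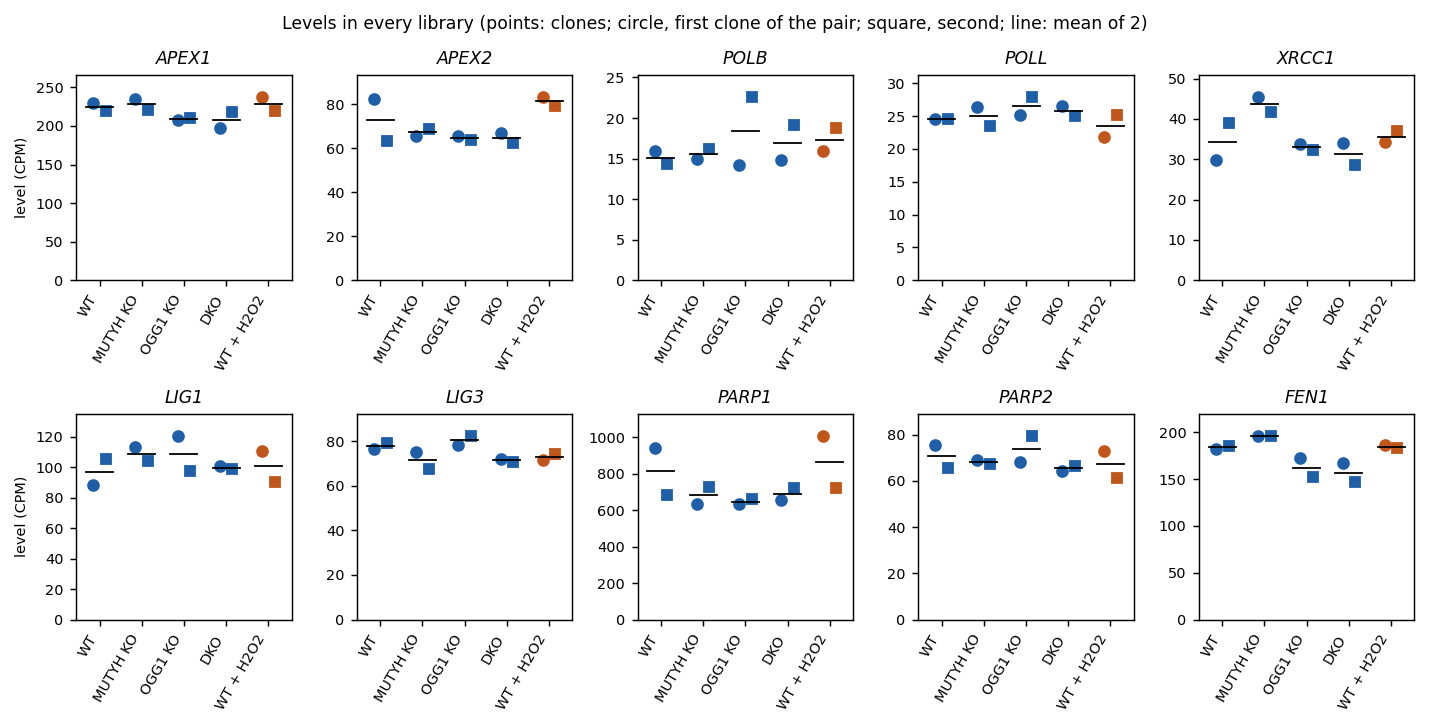
Level in CPM (y axis, from 0) of each gene in each library, by group on the x axis. Points are clones (circle, the first clone named for the group in the text; square, the second), lines are means of 2 and orange marks the H2O2 libraries; WT clone 2 is the high point of PARP1 at 939.7 CPM untreated and 1006.4 CPM treated, and OGG1-/ clone 22 that of POLB at 22.6 CPM.

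Groups whose libraries did not overlap were about as common among these genes as among all genes. In MUTYH-/ against WT they were 3 of 10 (FEN1 and XRCC1 higher, LIG3 lower), beside 21.5% of all genes tested. In OGG1-/ against WT they were 4 of 10 (POLL higher, APEX1, FEN1 and PARP1 lower), beside 25.2%. In DKO against WT they were 4 of 10 (POLL higher, APEX1, FEN1 and LIG3 lower), beside 25.7%, and in DKO against OGG1-/ 2 of 10 (LIG3 and PARP2, both lower), beside 24.3%. The median log2 fold change of the 10 genes was 0.02, -0.00 and -0.11 in MUTYH-/, OGG1-/ and DKO against WT, and -0.06 in DKO against OGG1-/. Over all genes tested the medians were 0.01, 0.01, 0.00 and -0.01.

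At the median, the 10 genes differed less among libraries than genes at large, which were not matched to them for level. The SD of log2 CPM over the 8 untreated libraries had a median of 0.13 for the 10 genes, beside 0.20 for the 10216 genes with at least 10 CPM and 0.28 for all 18124 genes kept. POLL at 0.08 and APEX1 at 0.08 varied least, with 3.96% and 4.65% of the genes with at least 10 CPM varying less than they did. XRCC1 and POLB, each at 0.23, varied most, with 62.7% and 62.6% of those genes varying less. Their summed counts took 0.140% to 0.181% of a library, highest in WT clone 2 with and without H2O2, where PARP1 was high.

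Levels can be ranked between genes only per length. Over all annotated exon bases APEX1 came first at 115 CPM per kb as the mean of the untreated libraries, then FEN1 at 79.5, PARP1 at 38.4, APEX2 at 20.8, PARP2 at 17.1, XRCC1 at 12.96, LIG1 at 9.11, LIG3 at 5.84, POLL at 4.70 and POLB at 4.02 CPM per kb. APEX2 and PARP2, PARP2 and XRCC1, XRCC1 and LIG1, and POLL and POLB overlapped in range over the 8 libraries. The other neighbours in this order did not. The order depends on the length used: over the canonical transcript alone PARP1 came first at 178 CPM per kb, ahead of APEX1 at 150 (149.6), and LIG3 was last at 8.99. Within pairs of related enzymes, APEX1 exceeded APEX2 per exon length by 5.58-fold on average, from 4.77 to 6.13 over the 10 libraries. The ratio of PARP1 to PARP2 was 2.25 on average and ranged from 1.83 in OGG1-/ clone 22 to 3.05 in treated WT clone 2. The canonical transcript gave 4.67 for this mean ratio. The ratio of POLL to POLB ran from 0.936 to 1.35 per exon length, but from 0.573 to 0.830 per canonical transcript, so which of them was higher depends on the length used.

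The high PARP1 level of WT clone 2 was shared by other genes of the long arm of chromosome 1. PARP1 was 1.38-fold higher in clone 2 than in clone 11 untreated and 1.40-fold higher after H2O2. Among 579 genes beyond the centromere on this chromosome the median ratio of clone 2 to clone 11 was 1.25 untreated and 1.18 treated, and 76.2% and 78.2% of them were higher in clone 2. The 785 genes of the short arm had median log2 ratios of -0.02 and -0.02. All 14239 genes outside the long arm, those of the short arm included, had -0.00 and -0.01. DNA copy number was not measured in these files, and its part in the PARP1 level was not tested. For POLB and XRCC1, the other genes with a wide range over libraries, another measure was used. Each library was set against the mean of the other untreated libraries, over genes within 10 Mb. The median log2 difference of these neighbours stayed between -0.09 and 0.11. For the neighbours of PARP1 it was 0.29 in untreated and 0.34 in treated WT clone 2.

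**Figure D3:**
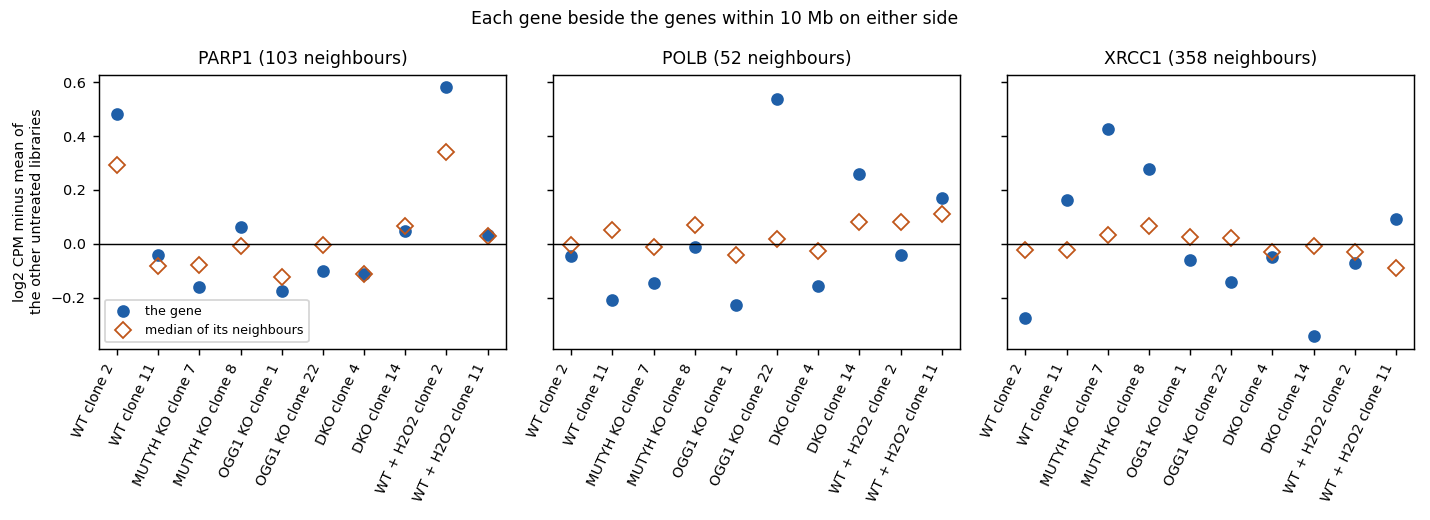
Log2 CPM of PARP1, POLB and XRCC1 minus the mean over the other untreated libraries (filled points; for a treated library the untreated library of the same clone is also left out of the mean), with the median of the same difference over genes of at least 1 CPM within 10 Mb on either side (open diamonds), for each of the 10 libraries. In WT clone 2 the neighbours of PARP1 are high with it, untreated and treated, while POLB in OGG1-/ clone 22 stands 0.54 above the mean of the other 7 with neighbours at 0.02.

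The sequence around the RefSeq start of PARP1 and XRCC1 is shown because these transcripts had the largest differences between knockouts and WT. The range of their log2 CPM over the 10 libraries was 0.67 each, as was that of POLB. Each window holds 250 bases before and 50 bases after the RefSeq start (GRCh38.p14), 5′ to 3′ along the gene. Capitals mark GGGCGG, the core of the SP1 box, and CCAAT, the core of the NF-Y box, on either strand. The PARP1 window is chr1:226408044-226408343 and the XRCC1 window chr19:43575478-43575777, both on the minus strand. The XRCC1 window lies inside the gene span given above, which on this strand begins at 43580473, so it does not precede that span.
PARP1: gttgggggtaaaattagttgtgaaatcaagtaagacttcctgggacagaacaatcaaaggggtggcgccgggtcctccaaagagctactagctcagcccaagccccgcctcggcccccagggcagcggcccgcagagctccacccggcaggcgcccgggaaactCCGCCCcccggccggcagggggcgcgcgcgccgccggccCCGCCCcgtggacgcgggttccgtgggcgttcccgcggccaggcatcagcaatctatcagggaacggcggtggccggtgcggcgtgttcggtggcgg
XRCC1: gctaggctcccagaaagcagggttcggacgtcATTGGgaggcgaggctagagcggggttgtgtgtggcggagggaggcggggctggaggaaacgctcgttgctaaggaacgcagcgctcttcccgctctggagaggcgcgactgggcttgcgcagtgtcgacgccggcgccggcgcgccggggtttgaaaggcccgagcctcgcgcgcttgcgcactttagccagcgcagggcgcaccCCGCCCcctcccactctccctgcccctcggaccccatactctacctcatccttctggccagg
PARP1 held 2 SP1 cores, starting 86 and 47 bases before the start site, and no CCAAT. XRCC1 held an SP1 core starting 12 bases before and a CCAAT starting 218 bases before the start site. The table had windows for 9 of the 10 genes, with 2 starts for POLL, and no entry for POLB. An SP1 core was found in windows of 6 of the 9 genes, beside 45.0% of 35116 windows of all genes. CCAAT was found in 4, beside 34.6%, and 4 held a pattern of 4 runs of at least 3 G with 1 to 7 bases between runs, the form that can fold into a G-quadruplex, beside 25.0%. TTTCCCGC, an E2F site, was found in LIG1 alone, where it overlaps an SP1 core, beside 1.63%, TTTGGCGC in none, beside 0.652%, and TGACGTCA, the cyclic AMP response element, in PARP2 alone, beside 1.85%. The windows were 57.3% to 70.0% G and C, beside a median of 58.7% for all windows, with PARP1 at the top. A match of letters does not show that a factor binds there.

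Untreated libraries fell into 2 expression sets that crossed the genotypes, as the first principal component of all genes, with 31.1% of the variance, placed 1 clone of each genotype on either side. Set A held WT clone 2, MUTYH-/ clone 8, OGG1-/ clone 22 and DKO clone 14, and set B the other 4. The labels do not say what the sets are. POLB was higher in the set A clone of all 4 genotypes, with a mean of 18.4 CPM in set A and 14.6 CPM in set B. PARP1 was also higher in set A in 4 of 4, with 762 and 651 CPM. XRCC1 and LIG1 were lower in set A in 4 of 4, with 33 and 38 CPM for XRCC1 and 97.0 and 110 (109.9) CPM for LIG1. FEN1, APEX1, LIG3 and PARP2 differed in direction in 1 genotype of the 4, and APEX2 and POLL in 2. The same direction in all 4 genotypes was seen for 4 of the 10 genes and for 46.5% of the 18124 genes kept, and since all genes placed the libraries, no test of this was made.

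With the expression set as a block in the fit (3 residual degrees of freedom), XRCC1 in MUTYH-/ against WT had a log2 fold change of 0.35 ± 0.12 and an unadjusted P of 0.0194. PARP1 in OGG1-/ had -0.32 ± 0.12 and 0.0341, and FEN1 in DKO had -0.23 ± 0.09 and 0.0435. The interaction of XRCC1 was -0.43 ± 0.17 with an unadjusted P of 0.0337. In these fits 4.46%, 7.18%, 7.32% and 7.02% of all genes had a P of at most 0.05 before adjustment in MUTYH-/, OGG1-/, DKO and the interaction. In edgeR's joint test of any difference between genotypes with this block, XRCC1 had an unadjusted P of 0.0178 and FEN1 of 0.0329. The share of all genes in that test is not given here. The edgeR adjusted p of the 10 genes, over all genes tested, was 0.647 or more in every comparison with this block, so none of them was called. The block narrowed the errors and left the sizes near those without it. The sets came from the leading component of these same libraries, so the block takes out spread by construction. The errors and P values of these fits may thus be too small.

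**Figure D4:**
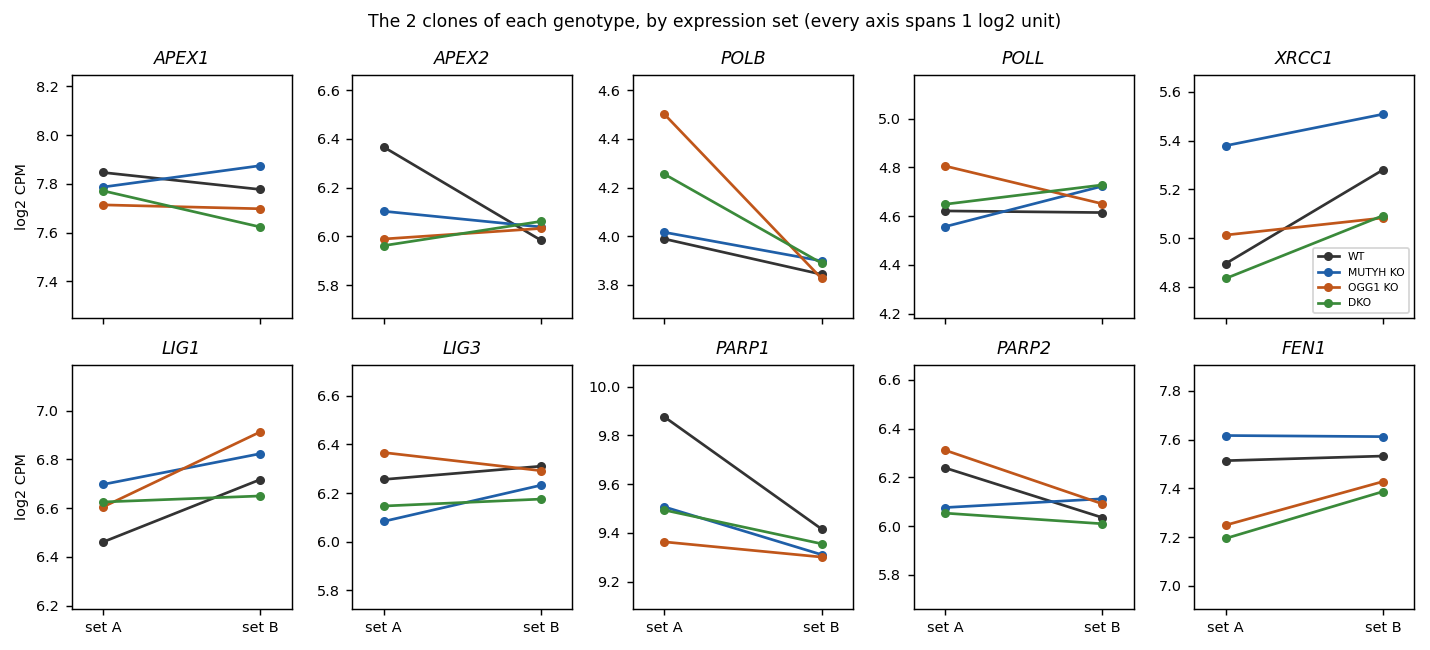
Log2 CPM (y axis, each spanning 1 unit) of the 2 clones of each genotype, joined by a line, with the clone of set A on the left and that of set B on the right. All 4 lines fall from left to right for POLB and PARP1 and climb for XRCC1 and LIG1, while the lines of POLL and APEX2 cross.

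H2O2 was tested against the same WT clones 24 h after treatment. APEX1 was at 238.1 and 219.6 CPM in treated clones 2 and 11, APEX2 at 83.5 and 79.1 CPM, POLB at 15.9 and 18.7 CPM and POLL at 21.8 and 25.2 CPM. XRCC1 was at 34.2 and 37.0 CPM, LIG1 at 110.6 and 90.5 CPM, and LIG3 at 71.5 and 74.6 CPM. The levels of PARP1 were 1006.4 and 720.0 CPM, of PARP2 72.8 and 61.3 CPM, and of FEN1 186.0 and 182.8 CPM. Each untreated level of the same clones is given above. Treated and untreated libraries did not overlap for POLB, which was higher, and LIG3, which was lower, 2 of 10 genes beside 41.4% of all 16997 genes. The log2 fold changes ran from -0.10 ± 0.12 for LIG3 to 0.19 ± 0.20 for POLB, with a median of 0.03 beside 0.00 for all genes tested, and the smallest edgeR adjusted p was 0.810.

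Within each clone, LIG1 moved in opposite directions, 1.26-fold of the untreated level in clone 2 and 0.860-fold in clone 11. XRCC1 did likewise with 1.15-fold and 0.952-fold. The gain of POLB came from clone 11, where it was 1.30-fold, while clone 2 was at 1.00-fold, and APEX2 was at 1.25-fold in clone 11 and 1.01-fold in clone 2. LIG3 (0.935-fold and 0.940-fold), PARP1 (1.07-fold and 1.05-fold) and PARP2 (0.964-fold and 0.935-fold) departed by similar amounts in both clones. In all, 6 of 10 genes had the same sign in both clones. These include APEX1, with a log2 ratio of 0.001 in clone 11, and POLB, with 0.003 in clone 2. The share of all genes with the same sign is not given here. In the paired fit, with clone as a replicate block and 1 residual degree of freedom, 2.57% of all genes had an adjusted p of at most 0.05, against 0% without the block, but 0 of the 10 did, and their smallest edgeR adjusted p was 0.524, for APEX2 (log2 fold change 0.16 ± 0.13). Summed levels of the proliferation list were 6067 and 5783 CPM in the treated clones and 5141 and 5598 CPM in the untreated ones, and their part in these values was not tested.

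**Figure D5:**
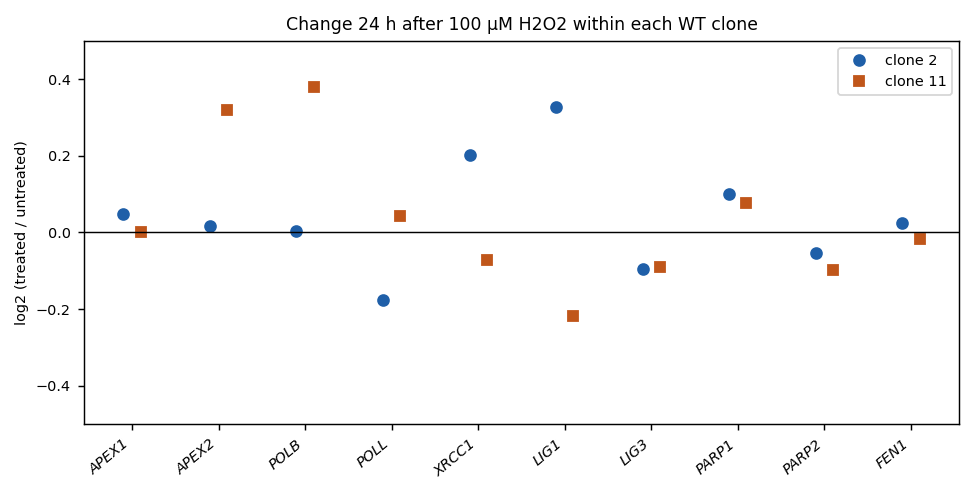
Log2 ratio of the treated to the untreated level within WT clone 2 (circles) and clone 11 (squares) for each gene, 24 h after 100 µM H2O2. LIG1 and XRCC1 lie on opposite sides of 0 in the clones, and POLB and APEX2 are displaced in clone 11 with clone 2 near 0.

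The rest of the pathway was read from a list of 55 genes, of which 54 were tested. It held 11 DNA glycosylases, with the edited OGG1 among them, and the clamp, clamp loader and polymerases of long-patch repair. It also held end-processing enzymes, mitochondrial repair enzymes, cofactors and erasers of ADP-ribose, and relatives of end joining. In every genotype comparison 0 of 54 passed an adjusted p of 0.05, and 0 had a P below 0.05 before adjustment. These counts cover OGG1 too, whose transcript was at 1.22 CPM in OGG1-/ clone 1 but at 11.3 CPM in clone 22. After H2O2 0 of 54 passed the adjusted threshold, while 6 were higher and 2 lower with a P below 0.05 before adjustment, 8 of 54 beside 7.63% of all genes. The long-patch genes among the 6 were RFC2 and RFC1, subunits of the loader that opens the PCNA clamp, RPA2, a subunit of the protein that coats single-stranded DNA, and POLE3, a subunit of DNA polymerase epsilon. RFC2 was at 57.8 and 54.4 CPM in untreated clones 2 and 11 and at 78.9 and 76.8 CPM in treated ones, and RPA2 at 93.0 and 86.4 against 123.7 and 117.7 CPM. Neither overlapped, with log2 fold changes of 0.47 ± 0.13 and 0.42 ± 0.13 and an edgeR adjusted p of 0.638 each. NEIL1, a glycosylase for oxidized bases, was at 44.7 and 50.6 CPM untreated and 34.0 and 32.3 CPM treated (log2 fold change -0.53 ± 0.14). With clone as a replicate block, 11 of the 54 were higher and 4 lower with such a P, 15 of 54 beside 20.1% of all genes in that fit, and the smallest edgeR adjusted p was 0.057, for NEIL1, so 0 passed.

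The transcripts most like PARP1 over the 10 libraries, among 11634 genes with a mean of at least 5 CPM, were TAF5L (Pearson r = 0.985), YY1AP1 (0.977) and AMER1 (0.968). TAF5L and YY1AP1 lie on chromosome 1 like PARP1, and AMER1 on the X chromosome. XRCC1 came next in range, narrowly ahead of POLB, and its most similar transcripts were H2AX (0.922), RTL10 (0.904) and DLX6-AS1 (0.900), each on a chromosome other than that of XRCC1. Among the 10 genes themselves, the strongest likeness of the 45 pairs was that of PARP1 and APEX2 (r = 0.835), both high in WT clone 2 untreated and treated, followed by FEN1 and XRCC1 (0.754). These are descriptions over libraries that share 2 WT clones and DKO clones of the same parent, with no test.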

How the data were processed

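Untreated HAP1 clones (8 libraries) and treated WT clones (2 libraries) were sequenced on a DNBseq platform. The authors aligned reads to GRCh38.p13 with Hisat2 2.2.1 and counted them per gene with featureCounts of Rsubread. The deposited values are raw read counts per gene, not normalized. Whether counting used strand, and what was done with reads that align to several places, is not given in the sources used here. WT columns shared by both tables were identical and used once, and 0 columns were left out. Of 59453 genes, 38434 (64.6%) matched GENCODE release 44 by symbol, which gave positions and lengths.

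The tests used edgeR 4.0.16 in R 4.3.3 (TMM factors, filterByExpr, quasi-likelihood F test, legacy=TRUE, two-sided), with Benjamini-Hochberg adjustment over all genes tested. The 8 untreated libraries entered 1 fit, and the 4 WT libraries with and without H2O2 another. SEs and 95% intervals come from the F statistic. Reads carried no molecular identifiers, so counting error alone understates the error of a level. Alternatives were DESeq2 1.42.0 and its size factors, other filters, leaving out each library, and blocks for expression set or clone. Clone numbers name the same WT clones with and without H2O2, and the clone difference correlated between the treatments (Pearson r = 0.681 across 16997 genes), so they pair the libraries.

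The genes, lists and tests were chosen with earlier results of these data known. All 10 genes are named. From each other list up to 4 genes with the smallest P in a comparison could be named, with genes that overlap the 10, and, for the 2 of widest range, the 3 most correlated genes. The scripts were tested on simulated data.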

Additional observations from a re-analysis of the deposited data

How the results depend on the processing

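No alternative brought any of the 10 genes to an adjusted p of at most 0.05 or past the criterion of the study: 189 of 189 counts of such genes were the same, and 0 of 870 values of single genes were newly called. The log2 fold change changed sign in 55 of the 870, none of them larger than 0.28 without the alternative. With the clone as a replicate block the H2O2 count stayed at 0 of 10. Before adjustment, 3 of 520 values on leaving out a library had a P of at most 0.05 (XRCC1 in MUTYH-/ and PARP1 in OGG1-/ without WT clone 11, and POLB in OGG1-/ without OGG1-/ clone 1), besides those with the expression set as a block. DESeq2 called 11 to 76 of all genes, and 0 of the 10. Medians over the 10 genes moved most on leaving out single libraries: -0.06 in MUTYH-/ without clone 7, -0.05 in DKO without WT clone 2, -0.02 in the interaction without OGG1-/ clone 22 and -0.04 in H2O2 without treated clone 2. Leaving out a library leaves its group with 1, which is assumed to vary like the other groups. Levels per length changed with the length definition, for PARP1 from 38.4 to 178 CPM per kb with the canonical transcript, a length chosen after seeing the data. The 2 clones per group limit all comparisons.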
